A study of Homo sapiens with 22 samples.

Results

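Recovery from heat shock was followed in HEK293T cells transfected with an siRNA, a short RNA that guides the breakdown of its target, here aimed at Satellite III (Sat III) RNA. HEK293T is a human embryonic kidney line that holds the SV40 large T antigen. The cells were chosen by the scanner columns of 2 groups, which give 7 of the 22 arrays of the series: 4 arrays of cells heat-shocked for 1 h at 42 °C and then kept for 6 h at 37 °C, and 3 arrays of cells taken directly after the 1 h heat shock. The 3 arrays of untreated cells of the same arm, left at 37 °C, show where a transcript stood before the heat. All 10 arrays of this arm share the Sat III siRNA, the control cells included. The other arm received a scrambled siRNA and has 4 arrays in each state. The labels name the cells by siRNA, treatment and replicate number and say nothing of separate cultures. The spread behind the p-values may therefore be technical. The knockdown of Sat III itself was not analysed here, as no probe carries its name.

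Heat shock makes proteins unfold and releases heat shock factor 1 (HSF1), a transcription factor, from its chaperone partners. HSF1 binds heat shock elements, arrays of inverted GAA units, and switches on chaperone genes, and in human cells also the Sat III repeats, whose transcripts gather in nuclear stress bodies with splicing factors. At the same time translation slows, many introns stay unspliced and immediate early genes respond to the stress kinases. In recovery, newly made chaperones rebind HSF1 and the programme is shut off.

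RNA was hybridised to Illumina bead arrays, whose probes each report 1 transcript region as a fluorescence intensity. Before normalisation, the 7 arrays had median intensities of 48.9 to 61.2. Between 13222 and 14396 probes (27.1% to 29.5%) were detected on each, at a detection p-value under 0.01. All levels below are normalised log2 intensities of a gene's brightest probe, and all changes are log2 differences ± SE, recovery minus heat shock unless stated. A gene is said to have risen or fallen where limma gave a Benjamini-Hochberg adjusted p under 0.05 over the 10147 genes tested. Levels are given in replicate order, 1 to 4 for recovery and 1, 2 and 4 for heat shock and for untreated cells. The precision is limited by the number of arrays. Heat-shocked replicate 4 had the lowest level of the 3 heat-shocked arrays for HSPA6, DUSP1, ATF3, BAG3, SERPINH1, HSPB1 and CRYAB, and without it 963 genes rose and 772 fell. The labels of late replicates differ between the scanner table used here and the authors' normalised table, so counts within replicates 1 and 2 are given below. In bulk RNA, fewer cells of a state and less RNA per cell cannot be told apart.

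The 4 markers given for the change of state all passed the test. DNAJB1, a co-chaperone of the HSP70 family, was at 9.43, 9.44, 9.31 and 9.23 in recovering cells, against 13.59, 13.55 and 13.46 in heat-shocked cells and 9.09, 9.05 and 9.23 in untreated cells. It fell by 4.18 ± 0.10 in recovery, or 18.1-fold (limma, adjusted p = 3.17e-18). DUSP1, a phosphatase that switches off stress kinases, was at 9.05, 9.04, 8.96 and 9.19 in recovering cells, against 12.98, 12.71 and 12.24 in heat-shocked cells and 9.01, 9.14 and 8.94 in untreated cells. It fell by 3.58 ± 0.14 (limma, adjusted p = 2.63e-14). For both genes the recovering arrays lay far below the heat-shocked ones, and the difference from untreated cells did not pass, at 0.23 ± 0.10 (limma, adjusted p = 0.137) and 0.03 ± 0.14 (limma, adjusted p = 0.921).

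The other markers ran the opposite way. RSRP1, an arginine and serine rich protein gene with splicing-factor features, was at 7.12, 7.31, 7.39 and 7.32 in recovering cells, against 4.56, 4.49 and 4.64 in heat-shocked cells and 6.67, 6.66 and 6.59 in untreated cells. Its probe was not detected on any heat-shocked array, so the rise of 2.72 ± 0.09 stands for at least 3.60-fold (limma, adjusted p = 7.97e-16). A second, dimmer RSRP1 probe went the other way, at -0.41 ± 0.13 (limma, adjusted p over probes 0.0261), so the direction holds for the region the brighter probe reads and not for every RSRP1 transcript. TERC, the RNA template of telomerase, was at 7.59, 7.54, 7.49 and 7.39 in recovering cells, against 5.69, 5.79 and 5.90 in heat-shocked cells and 8.61, 8.15 and 8.40 in untreated cells. It rose by 1.71 ± 0.18, or 3.28-fold (limma, adjusted p = 2.94e-07), and still stood at -0.88 ± 0.18 against untreated cells (limma, adjusted p = 0.00222). Without background correction the RSRP1 change was 1.54 and the TERC change 1.12.

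**Figure D1:**
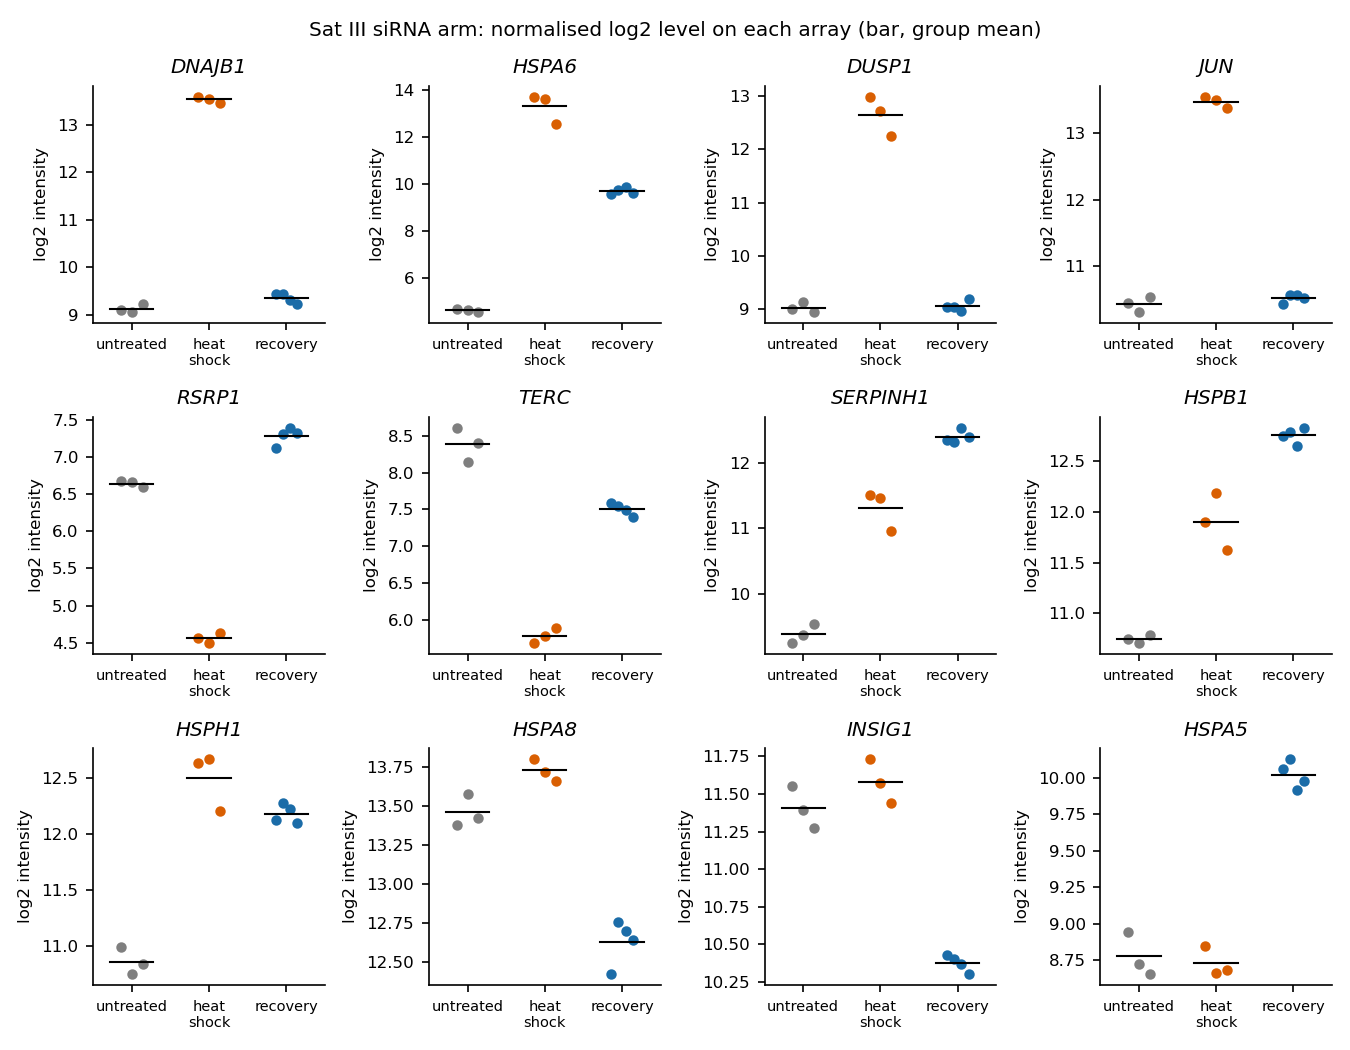
Normalised log2 intensity of 12 genes on each array of the Sat III siRNA arm (points), with the group mean as a bar, for untreated, heat-shocked and recovering cells. DNAJB1, DUSP1 and JUN returned close to the untreated level, HSPA6 stayed far above it, SERPINH1 and HSPB1 went on rising, and HSPA8 and INSIG1 dropped below it.

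Promoters are printed for 4 chaperone genes because the same element stands before genes that fell and before one that rose. They are RefSeq promoters on GRCh38.p14, from 250 bases before to 50 bases after the start, in lower case with the three-unit heat shock element in capitals, spelled GAANNTTCNNGAA or, on the other strand, TTCNNGAANNTTC.
HSPA6 (chr1:161524290-161524589, plus strand): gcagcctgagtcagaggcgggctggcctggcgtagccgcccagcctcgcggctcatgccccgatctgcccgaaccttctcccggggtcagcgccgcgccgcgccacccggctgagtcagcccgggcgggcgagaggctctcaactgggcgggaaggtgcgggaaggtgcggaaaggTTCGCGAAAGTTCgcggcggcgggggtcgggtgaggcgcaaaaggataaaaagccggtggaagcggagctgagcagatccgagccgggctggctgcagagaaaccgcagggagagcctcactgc
HSPA8 (chr11:123062087-123062386, minus strand): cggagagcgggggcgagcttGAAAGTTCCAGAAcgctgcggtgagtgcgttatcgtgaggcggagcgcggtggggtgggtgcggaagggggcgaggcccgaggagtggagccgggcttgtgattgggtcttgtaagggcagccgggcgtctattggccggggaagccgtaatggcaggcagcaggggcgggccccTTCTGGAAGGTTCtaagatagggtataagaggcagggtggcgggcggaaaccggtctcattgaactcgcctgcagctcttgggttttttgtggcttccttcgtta
DNAJA1 (chr9:33025023-33025322, plus strand): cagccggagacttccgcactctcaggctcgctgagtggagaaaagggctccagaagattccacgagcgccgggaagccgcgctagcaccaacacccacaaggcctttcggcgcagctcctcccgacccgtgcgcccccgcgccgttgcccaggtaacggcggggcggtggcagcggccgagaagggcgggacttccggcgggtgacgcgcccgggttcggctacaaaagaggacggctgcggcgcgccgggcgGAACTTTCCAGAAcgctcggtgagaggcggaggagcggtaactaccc
SERPINH1 (chr11:75562003-75562302, plus strand): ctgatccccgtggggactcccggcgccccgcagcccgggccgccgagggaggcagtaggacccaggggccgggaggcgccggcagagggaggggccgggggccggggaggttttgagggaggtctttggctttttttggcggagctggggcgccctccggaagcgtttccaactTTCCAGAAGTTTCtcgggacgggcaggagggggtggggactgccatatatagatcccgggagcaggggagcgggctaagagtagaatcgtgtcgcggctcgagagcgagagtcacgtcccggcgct

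Counted from the start, with negative positions before it, the element lay at -74 to -62 in HSPA6 and at -76 to -64 in SERPINH1. HSPA8 had 2 that do not overlap, at -230 to -218 and at -55 to -43. In DNAJA1 it lay at 4 to 16. RefSeq promoters matched 43 of the 50 chaperone and HSF1 target genes tested, and 6 of the 43 (13.95%) held the element, against 172 of all 35116 promoters (0.4898%) and 25 of the 8364 promoters of genes tested (0.2989%). The list was chosen to hold HSF1 targets, so its larger share was to be foreseen and is not a result of these data. The element was in 3 of 12 promoters of members that fell, in 1 of 5 of members that rose, and in 2 of 26 that did not pass, CHORDC1 and DNAJB6. A match to these letters is a description of the window and not a site of binding.

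In all, 2182 of the 10147 genes (21.5%) passed the test between recovery and heat shock, 1193 higher (11.8%) and 989 lower (9.75%). Of these, 324 rose and 242 fell at least 1.5-fold, and 41 rose and 81 fell at least 2-fold. The median over all genes tested was -0.0032. Heat shock against untreated cells, which shares the heat-shocked arrays, gave 417 genes higher (4.11%) and 356 lower (3.51%). Of the 417 genes higher after heat shock, 285 then fell (68.3%), and these are called decayed here; 6 rose again and 126 did not pass. Of the 356 lower genes, 262 rose (73.6%), called rebounded; 1 fell again and 93 did not pass. With median scaling between arrays in place of quantile normalisation, 253 genes were higher and 161 lower in recovery, with 84 decayed and 44 rebounded, and heat shock gave 103 genes higher and 54 lower. Within replicates 1 and 2, 612 genes rose and 510 fell, with 193 decayed and 140 rebounded.

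Most decayed and rebounded genes had no call left against untreated cells. Recovery against untreated cells gave 614 genes higher (6.05%) and 603 lower (5.94%) over all genes. Among the 285 decayed genes 24 were still higher, 16 were lower and 245 did not pass. Among the 262 rebounded genes 38 were higher, 4 lower and 220 did not pass. The medians of the decayed genes were -0.62 in recovery and 0.66 after heat shock, and those of the rebounded genes 0.60 and -0.51. A larger number of genes had a call in recovery and none after heat shock, 925 higher and 703 lower, and a missing call does not show that they had not moved before. The median change after heat shock was -0.17 for the 925 and 0.095 for the 703, against the direction of recovery in both. Of the 925, 350 stood above untreated cells and 575 had no call against them, and of the 703, 315 stood below and 388 had no call. As the 3 comparisons share arrays, these counts are a description. Without heat shock replicate 2, the rebounded genes numbered 164.

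**Figure D2:**
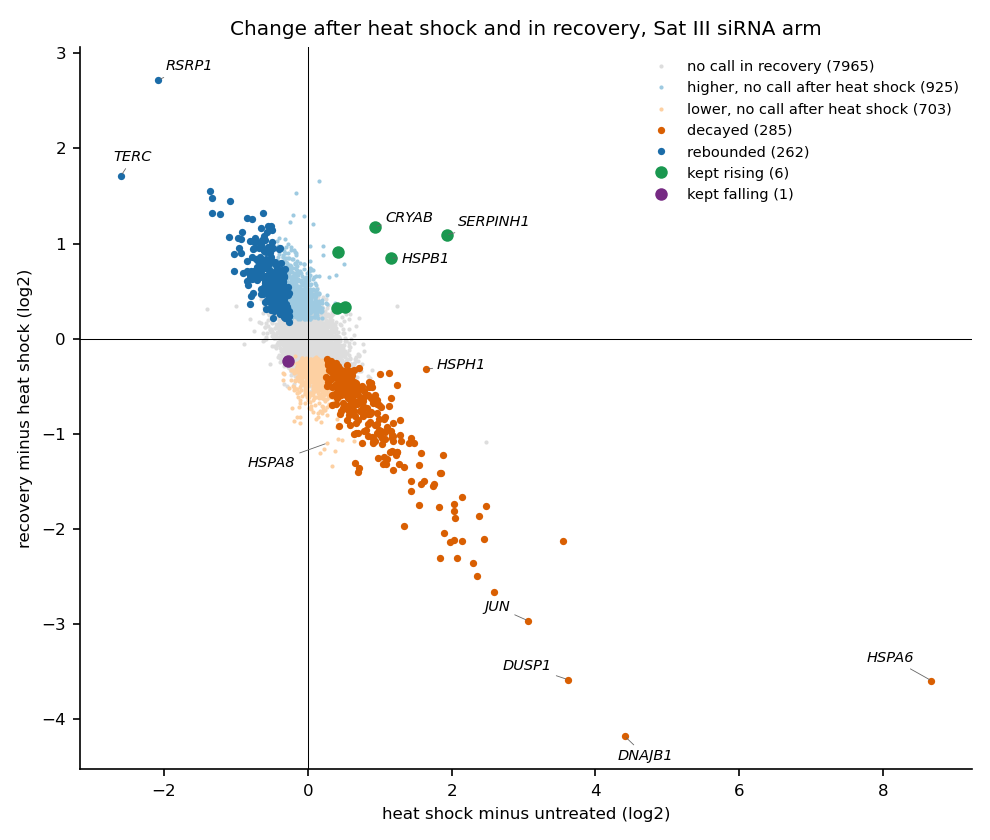
Each point is a gene of the Sat III siRNA arm, with its log2 change after heat shock on the x axis and its log2 change in recovery on the y axis, coloured by pattern. The decayed genes (285) lie at the lower right and the rebounded genes (262) at the upper left, while CRYAB, SERPINH1 and HSPB1 stand apart at the upper right; both axes share the heat-shocked arrays.

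The scrambled arm sorts genes by group means of arrays that lie outside the recovery comparison of the Sat III arm. The sorting is not independent, as all arrays were normalised and fitted together and both calls share a gene's variance estimate. With scrambled untreated replicate 2 left out, the Sat III recovery calls went from 1193 higher and 989 lower to 1275 and 1086. How far this sharing shaped the percentages below was not tested. In that arm 606 genes were higher (5.97%) and 578 lower (5.7%) after heat shock. Of the 606, 327 fell in recovery in Sat III siRNA cells (54.0%), 11 rose and 268 did not pass, with a median of -0.33. Of the 578, 339 rose (58.7%), 11 fell and 228 did not pass, with a median of 0.35. Among the 8963 genes with no call, 843 rose (9.41%) and 651 fell (7.26%).

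Of 50 tested chaperones and HSF1 targets, 12 fell in recovery (24%, beside 9.75% of all genes) and 6 rose (12%, close to the 11.8% of all genes), with a median of -0.016 beside -0.0032 over all genes. After heat shock 18 of the 50 were higher (36%, beside 4.11% of all genes) and 0 were lower (beside 3.51%). After recovery 18 stood above untreated cells (beside 6.05% of all genes) and 3 below (beside 5.94%). HSPA6, the strictly heat-inducible HSP70, was at 9.61, 9.75, 9.89 and 9.61 in recovering cells, against 13.72, 13.64 and 12.58 in heat-shocked cells and 4.69, 4.67 and 4.56 in untreated cells. It fell by 3.60 ± 0.26, or 12.1-fold (limma, adjusted p = 1.35e-09), and heat-shocked replicate 4 lay below the other two. It was not detected on untreated arrays and in recovery still stood at 5.08 ± 0.26, at least 19.3-fold above them (limma, adjusted p = 1.55e-11).

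BAG3, a co-chaperone that links HSP70 to autophagy, was at 9.78, 9.70, 9.89 and 9.66 in recovering cells, against 11.97, 12.04 and 11.57 in heat-shocked cells and 9.40, 9.41 and 9.43 in untreated cells. It fell by 2.11 ± 0.11 (limma, adjusted p = 3.01e-12) and no recovering array reached the heat-shocked ones. The main inducible HSP70 genes HSPA1A and HSPA1B fell by 2.13 ± 0.36 and 2.04 ± 0.08, but they are near-identical copies, so their probes may not tell them apart. ZFAND2A, a zinc finger protein gene induced by proteotoxic stress, fell by 1.75 ± 0.13, and DNAJA1, an HSP40 co-chaperone, by 0.73 ± 0.08.

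HSPA8, the constitutive HSP70, did not return to its earlier level but went below it. It was at 12.42, 12.76, 12.70 and 12.65 in recovering cells, against 13.81, 13.72 and 13.67 in heat-shocked cells and 13.38, 13.58 and 13.42 in untreated cells, so that the recovering arrays lay below all others. It fell by 1.10 ± 0.13 against heat shock (limma, adjusted p = 1.74e-06) and was at -0.83 ± 0.13 against untreated cells (limma, adjusted p = 2.11e-04). The element shown above is present before HSPA8 as before SERPINH1, which moved the opposite way.

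The 6 members that rose were SERPINH1, HSPB1, CRYAB, HSPA4L, HSPB8 and HSPD1. SERPINH1, the collagen chaperone HSP47, was at 12.34, 12.32, 12.54 and 12.40 in recovering cells, against 11.51, 11.46 and 10.96 in heat-shocked cells and 9.24, 9.37 and 9.53 in untreated cells. It kept rising, by 1.09 ± 0.13 (limma, adjusted p = 3.97e-06), and reached 3.02 ± 0.13 above untreated cells (limma, adjusted p = 2.21e-12). HSPB1, which codes for HSP27, was at 12.74, 12.79, 12.65 and 12.82 in recovering cells, against 11.90, 12.18 and 11.62 in heat-shocked cells and 10.74, 10.71 and 10.79 in untreated cells, a rise of 0.85 ± 0.12 (limma, adjusted p = 3.32e-05). CRYAB, the small heat shock protein alpha-B crystallin, was at 6.49, 6.69, 6.37 and 6.81 in recovering cells, against 5.51, 6.06 and 4.67 in heat-shocked cells and 4.40, 4.55 and 4.50 in untreated cells, a rise of 1.18 ± 0.27 (limma, adjusted p = 0.00281), and it was not detected in untreated cells. Without background correction the CRYAB rise was 0.64. For SERPINH1, HSPB1 and CRYAB every recovering array was above every heat-shocked one, which in turn were above the untreated ones. For CRYAB, heat-shocked replicate 4 lay below the lowest detected level of its array, 5.39. Its place above the untreated arrays is therefore an order among undetected signals.

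HSPA4L, a nucleotide exchange factor of the HSP110 family, kept rising as well, by 0.91 ± 0.09. HSPB8, a small heat shock protein that works with BAG3, rose by 0.97 ± 0.18 and HSPD1, the mitochondrial chaperonin, by 0.29 ± 0.08, both with no call after heat shock. The HSPD1 call was lost with median scaling, with only the 7 arrays fitted, and without recovery replicate 2 or heat shock replicate 4. HSPE1, its co-chaperonin, did not pass, at 0.20 ± 0.08. HSP90AA1, the inducible HSP90, was at 0.17 ± 0.07, and HSF1 itself at -0.08 ± 0.25, and neither passed. The remaining genes that kept rising were WDR33, a subunit of the polyadenylation machinery, at 0.33 ± 0.07, and PRICKLE1, a planar cell polarity gene, at 0.33 ± 0.10. Several WDR33 probes disagreed in sign, the PRICKLE1 groups overlapped, and both recovery calls were lost with median scaling, within replicates 1 and 2 and within replicates 3 and 4. The PRICKLE1 recovery call was also lost with only the 7 arrays fitted and without recovery replicate 1 or 3 or heat shock replicate 1 or 2, and its pattern without heat shock replicate 4 as well. The WDR33 pattern was lost with the mean of probes. The recovery rises of SERPINH1, HSPB1, CRYAB and HSPA4L passed in each setting in which single genes were recomputed, but the call after heat shock, and with it the pattern, was lost with median scaling for CRYAB and HSPA4L. That of CRYAB was also lost with no filter, without any 1 of the 7 arrays but heat shock replicate 4, and without 10 of the 15 others, and that of HSPA4L without heat shock replicate 1. Replicates 3 and 4 hold 1 heat-shocked and 1 untreated array of this arm, so no pattern is read from them. NBN, of the DNA break sensing complex, was the single gene that kept falling, at -0.23 ± 0.08, and its recovery call was lost without any of 6 of the 7 arrays, recovery replicate 2 being the exception. In its place GGPS1 kept falling without recovery replicate 1 or heat shock replicate 2, FGFBP1 without recovery replicate 4 and ACTA2 without heat shock replicate 4.

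HSPH1, the HSP110 disaggregase, had the smallest adjusted p of all genes tested for a recovery that differed between the arms. In Sat III siRNA cells it was at 12.13, 12.28, 12.22 and 12.10 in recovering cells, against 12.63, 12.67 and 12.21 in heat-shocked cells and 10.99, 10.75 and 10.84 in untreated cells. It fell by 0.32 ± 0.11 (limma, adjusted p = 0.0400), but the groups overlapped, with heat-shocked replicate 4 among the recovering arrays. The call was lost with median scaling, with no filter, with only the 7 arrays fitted, and without recovery replicate 1, 3 or 4 or heat shock replicate 1 or 2. Within replicates 3 and 4 the change was -0.044 (limma, adjusted p = 0.904). In scrambled-siRNA cells it changed by 0.56 ± 0.10. The difference between the arms, Sat III minus scrambled, was -0.88 ± 0.15, with a limma adjusted p of 0.0711 that misses the threshold. It passed in 5 of 31 other settings and lay between 0.0591 and 1.00 in the other 26. The adjusted p was 0.00641 without background correction, 0.0435 with the replicate number as a block and 0.00278 without Sat III heat shock replicate 4. It was 0.510 and 0.265 without Sat III heat shock replicate 1 or 2, 0.666 within replicates 1 and 2, and 1.00 within replicates 3 and 4 and with median scaling.

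Across all genes, the recovery change differed between the arms for 0 of 10147 genes (0%) with limma, and 349 had an unadjusted p under 0.05. That is a smaller share than the 0.05 that would pass on average if no gene differed. In the scrambled arm 1235 genes rose (12.2%) and 967 fell (9.53%) between heat shock and recovery. DNAJB1 changed by -3.67 ± 0.09 there and DUSP1 by -3.09 ± 0.13, HSPA6 by -2.87 ± 0.24 and ATF3 by -1.82 ± 0.12. The limma adjusted p of the difference between the arms was 0.697 for DNAJB1, 0.262 for ATF3 and 1.00 for DUSP1 and HSPA6. Without Sat III heat shock replicate 4, ATF3 passed, with a difference of -1.02 (limma, adjusted p = 0.0355). A p that misses the threshold does not show that the arms recovered alike.

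**Figure D3:**
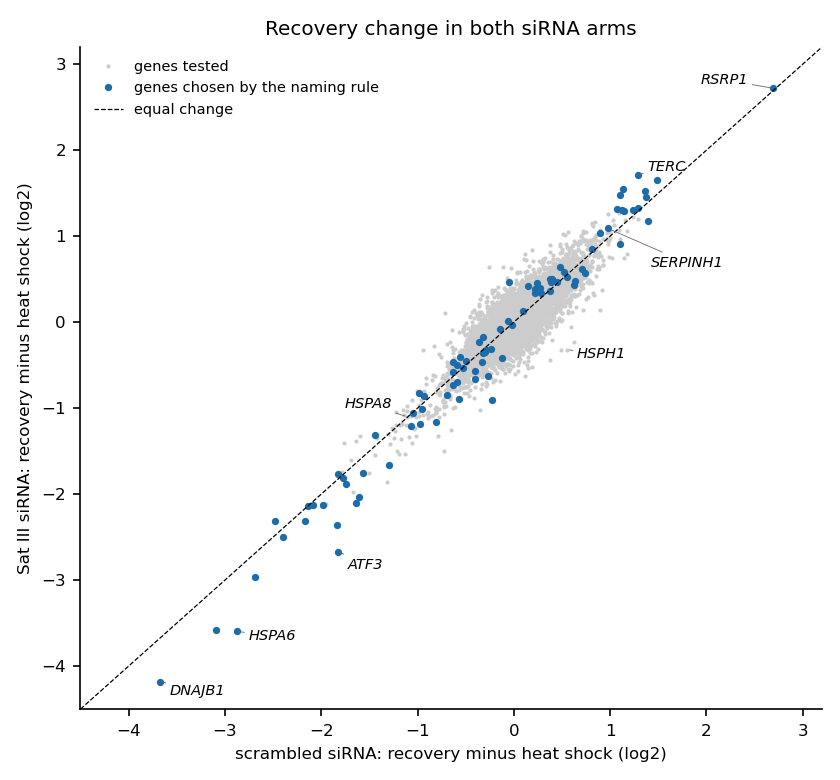
Log2 change in recovery against heat shock in Sat III siRNA cells (y axis) and in scrambled-siRNA cells (x axis), 1 point per gene, with genes chosen by the naming rule in blue and equal change as a dashed line. HSPH1 lies below 0 in the Sat III siRNA arm and above 0 in the scrambled arm.

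Immediate early genes and MAP kinase phosphatases, which respond within minutes to stress kinases, fell almost as a group. Of 38 tested members 28 fell (73.7%, beside 9.75% of all genes) and 1 rose (2.63%, beside 11.8%), with a median of -0.89. Of the 38, 24 were decayed genes, beside 2.81% of all genes. JUN, a subunit of the AP-1 transcription factor, was at 10.42, 10.56, 10.56 and 10.52 in recovering cells, against 13.55, 13.50 and 13.39 in heat-shocked cells and 10.43, 10.30 and 10.53 in untreated cells. It fell by 2.97 ± 0.09, or 7.81-fold (limma, adjusted p = 7.97e-16), back to within 0.10 of untreated cells. ATF3, a stress-induced repressor, was at 8.15, 8.27, 8.35 and 8.28 in recovering cells, against 11.03, 11.18 and 10.58 in heat-shocked cells and 8.34, 8.40 and 8.29 in untreated cells, a fall of 2.67 ± 0.13 (limma, adjusted p = 3.01e-12). For JUN and ATF3 the recovering and untreated arrays overlapped, and the heat-shocked arrays lay well above both.

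FOS, the AP-1 partner of JUN, fell by at least 2.75-fold, as it was not detected on any recovering or untreated array. KLF10, a repressor induced by TGF-beta, fell by 2.14 ± 0.16. PPP1R15A, which restores translation after stress by bringing a phosphatase to eIF2 alpha, fell by 1.86 ± 0.11, and IER5, an immediate early gene that acts on HSF1, by 1.74 ± 0.14. Both were chosen after their values were seen. Against untreated cells 5 of the 38 members were higher (beside 6.05% of all genes) and 1 was lower (beside 5.94%) after recovery.

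The member that rose was MYC, a growth transcription factor, at 10.54, 10.50, 10.52 and 10.51 in recovering cells, against 9.37, 9.38 and 9.59 in heat-shocked cells and 10.56, 10.46 and 10.62 in untreated cells. It rebounded by 1.07 ± 0.14 (limma, adjusted p = 7.15e-06), and its recovering and untreated arrays overlapped. It was named after its values were seen. With median scaling 20 members fell.

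The DUSP1 promoter is printed because the cAMP response element TGACGTCA, in capitals, lies at -125 to -118 from its start. It was chosen after the values were seen and comes from the same RefSeq table on GRCh38.p14.
DUSP1 (chr5:172771146-172771445, minus strand): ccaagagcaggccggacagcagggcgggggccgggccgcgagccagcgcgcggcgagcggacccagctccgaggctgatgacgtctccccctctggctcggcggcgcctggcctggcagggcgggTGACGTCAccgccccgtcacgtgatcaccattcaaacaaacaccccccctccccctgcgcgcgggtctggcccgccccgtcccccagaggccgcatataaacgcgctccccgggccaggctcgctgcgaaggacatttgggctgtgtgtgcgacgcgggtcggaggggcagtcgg

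This palindrome was present in 5 of 27 matched members of the immediate early list, in DUSP1, JUND and PPP1R15A, which fell, and in DUSP8 and MAFF, which did not pass. It was in 649 of all 35116 promoters (1.848%) and in 291 of the 8364 of genes tested (3.479%). None of the 27 held the three-unit heat shock element.

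Feedback targets of TGF-beta, BMP and YAP signalling fell as well. Of 14 tested members 10 fell (71.4%, beside 9.75% of all genes) and 0 rose, with a median of -0.44. Of the 14, 8 were decayed genes, beside 2.81% of all genes. ID1, an inhibitor of basic helix-loop-helix factors, was at 8.52, 8.55, 8.80 and 8.75 in recovering cells, against 10.89, 10.96 and 10.49 in heat-shocked cells and 8.55, 8.63 and 8.75 in untreated cells. It fell by 2.12 ± 0.11 (limma, adjusted p = 3.01e-12), to the untreated range. HES1, a Notch target and repressor, fell by 1.89 ± 0.11, SMAD7, the inhibitory SMAD, by 1.77 ± 0.10, and CCN1, a matricellular YAP target that is also on the immediate early list, by 1.66 ± 0.14. With median scaling 5 members fell.

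DDIT4, TXNIP and DEDD2 were also among the 12 largest falls. DDIT4, an inhibitor of mTORC1, was at 9.45, 9.59, 9.53 and 9.62 in recovering cells, against 11.94, 11.96 and 12.23 in heat-shocked cells, a fall of 2.49 ± 0.11 (limma, adjusted p = 4.89e-13). TXNIP, which binds thioredoxin and limits glucose uptake, was at 6.22, 6.33, 6.27 and 6.37 in recovering cells, against 8.80, 8.93 and 8.22 in heat-shocked cells, a fall of 2.35 ± 0.17 (limma, adjusted p = 2.12e-09). DEDD2, a death effector domain protein gene, fell by 2.31 ± 0.11 and stood at -0.47 ± 0.11 against untreated cells (limma, adjusted p = 0.00612). The largest falls were drawn only from genes whose groups do not overlap, so no recovering array of these 3 genes reached the heat-shocked range. Of all genes tested, 14.1% had groups that did not overlap, with recovery lower.

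Genes of the integrated stress response and amino acid supply moved in both directions. Of 29 tested members 8 rose (27.6%, beside 11.8% of all genes) and 5 fell (17.2%, beside 9.75%), with a median of 0.017. Besides DDIT4, the members that fell were STC2, a secreted glycoprotein gene, by 1.01 ± 0.08, DDIT3, the stress factor CHOP, by 0.89 ± 0.11, CEBPG, a partner of ATF4, by 0.58 ± 0.09, and ATF4 itself by 0.28 ± 0.09. The ATF4 call was lost in 10 of the settings tried, among them the mean of its probes, where the value turned to 0.24. VLDLR, a lipoprotein receptor, rose by 0.59 ± 0.12, PSAT1, of serine synthesis, by 0.39 ± 0.10, and ASNS, asparagine synthetase, by 0.34 ± 0.07. With median scaling 1 member rose and 3 fell. The risers numbered 4 without heat shock replicate 2 and 5 within replicates 1 and 2.

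Chaperones of the endoplasmic reticulum fold secreted and membrane proteins. Of 27 tested members 10 rose in recovery (37%, beside 11.8% of all genes) and 0 fell, with a median of 0.23. After heat shock 1 rose (beside 4.11% of all genes) and 0 fell (beside 3.51%). HSPA5, the chaperone BiP, was at 10.06, 10.13, 9.92 and 9.98 in recovering cells, against 8.85, 8.66 and 8.68 in heat-shocked cells and 8.95, 8.73 and 8.65 in untreated cells. It rose by 1.29 ± 0.09, or 2.45-fold (limma, adjusted p = 1.57e-09), with every recovering array above all heat-shocked and untreated ones. HSP90B1, the chaperone GRP94, rose by 0.46 ± 0.08. PDIA4, a disulfide isomerase, at 0.29 ± 0.12, HYOU1, an exchange factor for BiP, at 0.25 ± 0.12, and DNAJB9, a BiP co-chaperone, at -0.03 ± 0.08, did not pass. HSPA5 was the one member that rose with median scaling. The risers numbered 4 without heat shock replicate 2, 5 without heat shock replicate 1 or recovery replicate 1, and 6 without heat shock replicate 4 or recovery replicate 2. Within replicates 1 and 2 they numbered 3.

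Cholesterol synthesis genes, which the transcription factor SREBP2 switches on when sterols are low, fell in recovery. Of 19 tested members 12 fell (63.2%, beside 9.75% of all genes) and 0 rose, with a median of -0.42. After heat shock 0 were higher (beside 4.11% of all genes) and 1 was lower (beside 3.51%). INSIG1, which holds the SREBP machinery in the endoplasmic reticulum, was at 10.43, 10.40, 10.37 and 10.30 in recovering cells, against 11.73, 11.58 and 11.44 in heat-shocked cells and 11.55, 11.39 and 11.27 in untreated cells. It fell by 1.21 ± 0.10 (limma, adjusted p = 1.53e-08) and was at -1.03 ± 0.10 against untreated cells (limma, adjusted p = 8.73e-07). A second, dimmer INSIG1 probe fell in recovery, at -0.53 ± 0.12 (limma, adjusted p over probes 0.00268), and had also fallen after heat shock, at -0.57 ± 0.13 (limma, adjusted p over probes 0.00599).

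HMGCS1, the synthase ahead of the rate-limiting reductase, was at 10.00, 10.31, 10.23 and 10.27 in recovering cells, against 11.42, 11.41 and 11.27 in heat-shocked cells, a fall of 1.16 ± 0.09 (limma, adjusted p = 6.79e-09). IDI1, an isoprenoid isomerase, fell by 1.18 ± 0.20, MSMO1, a sterol oxidase, by 1.06 ± 0.13, and SQLE, squalene epoxidase, by 0.84 ± 0.11. The recovering arrays of these genes lay below the heat-shocked arrays throughout. ABCA1, a cholesterol exporter outside the list, was not detected on any heat-shocked array and rose by at least 2.05-fold (limma, adjusted p = 1.72e-07). Of the list, 9 members were lower than in untreated cells (beside 5.94% of all genes) and 0 were higher (beside 6.05%). With median scaling 6 members fell, and within replicates 1 and 2, 7 fell.

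**Figure D4:**
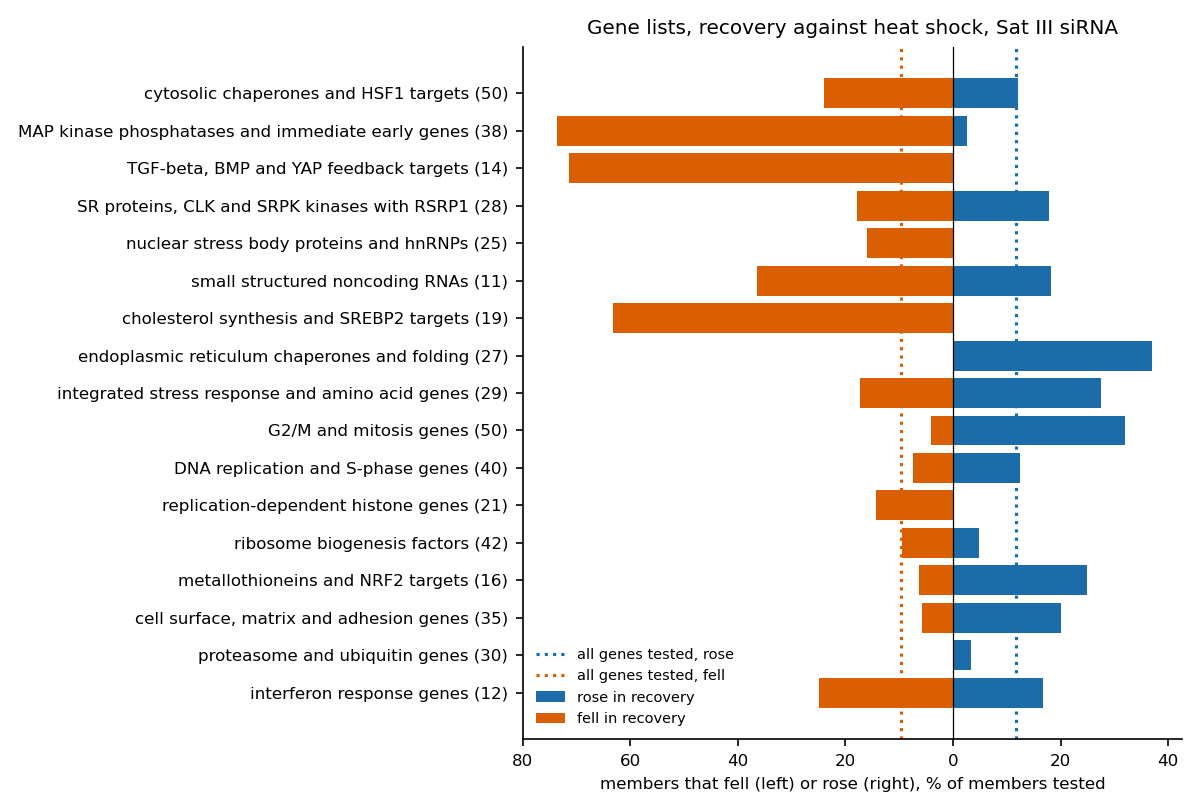
Share of the tested members of each gene list that fell (left, orange) or rose (right, blue) in recovery against heat shock in Sat III siRNA cells, in percent, with the number tested in brackets and dotted lines for all genes tested (9.75% lower, 11.8% higher). The immediate early, TGF-beta and cholesterol lists reach farthest to the left, and the endoplasmic reticulum list to the right.

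Splicing kinases and splicing factors were mixed. Of 28 tested SR proteins and kinases with RSRP1, 5 rose and 5 fell (17.9% each, beside 11.8% and 9.75% of all genes), with a median of -0.047. CLK1, a kinase of SR proteins whose own transcript keeps introns until heat triggers their removal, was at 8.70, 8.82, 8.93 and 8.56 in recovering cells, against 10.64, 10.44 and 10.43 in heat-shocked cells and 9.07, 8.97 and 8.82 in untreated cells. It fell by 1.75 ± 0.09 (limma, adjusted p = 7.26e-12), and its recovering and untreated arrays overlapped. CLK4 and CLK3, of the same kinase family, fell by 0.86 ± 0.10 and 0.58 ± 0.10, and the splicing factors RBM39 and TRA2A by 0.50 ± 0.11 and 0.47 ± 0.10.

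Besides RSRP1, the SR protein genes SRSF5, SRSF6 and SRSF2 rose by 0.50 ± 0.12, 0.35 ± 0.09 and 0.20 ± 0.07, and PNISR, a serine and arginine rich factor, by 0.31 ± 0.10. SRSF1, which nuclear stress bodies are known to hold, did not pass, at 0.13 ± 0.08. With median scaling RSRP1 was the one member that rose and 2 fell, and leaving out heat shock replicate 2 left 2 risers, while 3 were left without recovery replicate 2 or heat shock replicate 1. Within replicates 1 and 2, 2 members rose.

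Of 25 tested proteins of nuclear stress bodies and hnRNPs, 4 fell (16%, beside 9.75% of all genes) and 0 rose (beside 11.8%), with a median of -0.15, or -0.089 without heat shock replicate 2. HNRNPDL fell by 0.85 ± 0.12, SLTM, a scaffold attachment factor relative, by 0.63 ± 0.08, SAFB2 by 0.45 ± 0.09, and HNRNPK by 0.31 ± 0.08. SAFB, a marker of nuclear stress bodies, did not pass, at -0.17 ± 0.11. HNRNPDL was the only one of the 25 higher after heat shock, and with median scaling 1 member fell. A second, dimmer HNRNPDL probe did not pass after heat shock, at 0.045 ± 0.11 (limma, adjusted p over probes 0.893). That probe fell in recovery, at -0.48 ± 0.10 (limma, adjusted p over probes 0.00198).

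Of 11 tested small structured RNAs 4 fell (36.4%, beside 9.75% of all genes) and 2 rose (18.2%, beside 11.8%), with a median of -0.43, or -0.25 without recovery replicate 3. RPPH1, the RNA of ribonuclease P, was at 6.78, 7.03, 6.80 and 7.45 in recovering cells, against 9.66, 9.97 and 8.35 in heat-shocked cells and 7.23, 7.17 and 7.36 in untreated cells. It fell by 2.31 ± 0.31 (limma, adjusted p = 1.07e-05), and its recovering and untreated arrays overlapped. RN7SK, the RNA that holds the elongation factor P-TEFb inactive, fell by 1.09 ± 0.24. The small nucleolar RNAs SNORD46 and SNORD13 fell by 1.81 ± 0.25 and 1.31 ± 0.38. The SNORD13 call was lost with median scaling and without recovery replicate 3, or heat shock replicate 1 or 2. SNHG4, a host transcript of small nucleolar RNAs, rebounded with TERC, by 1.02 ± 0.12. Probes of such RNAs may also read a host transcript, and whether they did was not tested.

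A set added after the values were seen holds all 37 tested genes with SNORA, SNORD or SCARNA symbols, small RNAs that guide RNA modification. In it 16 rose (43.2%, beside 11.8% of all genes) and 8 fell (21.6%, beside 9.75%), with a median of 0.32. The set held 7 decayed genes (beside 2.81% of all genes) and 10 rebounded genes (beside 2.58%). SNORA33 was at 7.84, 7.81, 7.70 and 7.71 in recovering cells, against 6.18, 6.24 and 6.45 in heat-shocked cells and 7.64, 7.67 and 7.56 in untreated cells, a rebound of 1.48 ± 0.10 (limma, adjusted p = 4.38e-10). SNORA25 rose by 1.27 ± 0.18 and SNORD48 by 1.16 ± 0.16, while SNORD14C fell by 1.60 ± 0.12.

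Of 35 tested genes of the cell surface, matrix and adhesion, 7 rose (20%, beside 11.8% of all genes) and 2 fell (5.71%, beside 9.75%), with a median of 0.14. EMILIN2, an extracellular matrix glycoprotein, was at 7.73 to 8.16 on recovering arrays, against 6.41, 6.33 and 6.49 on heat-shocked and 6.64, 6.46 and 6.62 on untreated ones. It rose by 1.53 ± 0.13 (limma, adjusted p = 2.29e-08) above both other states. FJX1, a relative of the fly Four-jointed kinase, rebounded by 1.45 ± 0.10, and PCDH7, a protocadherin gene outside the list, by 1.32 ± 0.10. SULF1, an extracellular heparan sulfatase, and CSPG5, a brain proteoglycan, fell by 0.82 ± 0.11 and 0.73 ± 0.09, and both were below untreated cells. Without heat shock replicate 1 the members that fell numbered 4.

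DHRS2, a short-chain dehydrogenase gene, was at 6.37, 6.80, 6.62 and 7.16 in recovering cells, against 5.11, 5.34 and 4.79 in heat-shocked cells and 5.02, 4.93 and 4.80 in untreated cells. It was detected on all 4 recovering arrays and on none of the other 6, and rose by at least 2.46-fold (limma, adjusted p = 1.93e-07). Without background correction the DHRS2 change was 0.90, and that of ABCA1 0.68. UFSP1, a gene of the UFM1 protease family, rebounded by 1.55 ± 0.16, CCDC71, a coiled-coil protein gene, by 1.32 ± 0.09, and HPS6, which serves lysosome-related organelles, by 1.31 ± 0.09. These 3 genes were named among the largest rises, which were drawn only from genes whose groups do not overlap. Of all genes tested, 15.4% had groups that did not overlap, with recovery higher.

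Of 50 tested genes of G2/M and mitosis, 16 rose (32%, beside 11.8% of all genes) and 2 fell (4%, beside 9.75%), with a median of 0.12. Their changes ranged from -0.34 to 0.51. TTK, a spindle checkpoint kinase, rose by 0.51 ± 0.08, and KIF2C and KIF18A, mitotic kinesins, by 0.47 ± 0.08 and 0.46 ± 0.10. The members that fell were GTSE1 and DLGAP5, both of the mitotic spindle, by 0.32 ± 0.08 and 0.30 ± 0.09. With median scaling 0 of the 50 passed, although the median stayed at 0.12, and 5 rose within replicates 1 and 2. Without heat shock replicate 2 or 4 the risers numbered 9, and the DLGAP5 call was lost without heat shock replicate 1 or 2. Of 40 DNA replication genes 5 rose (12.5%) and 3 fell (7.5%), shares near the 11.8% and 9.75% of all genes, with a median of 0.036, and 0 passed with median scaling. Within replicates 1 and 2, 2 replication genes rose and 2 fell, and 1 histone gene fell. Leaving out 1 array left 2 to 5 risers and 1 to 3 falls, the fewest risers without heat shock replicate 2 or recovery replicate 4. CCNE1, cyclin E1, fell by 0.53 ± 0.08, and POLE, a replicative polymerase, rose by 0.50 ± 0.12. Of 21 tested replication-dependent histone genes 3 fell (14.3%, beside 9.75% of all genes), H2BC21, H3C12 and H2AC18, and 0 rose, with H2BC21 at -0.69 ± 0.14. The H2AC18 call was lost without heat shock replicate 2 or recovery replicate 2, and that of H3C12 without heat shock replicate 4.

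Of 42 ribosome biogenesis factors 2 rose (4.76%) and 4 fell (9.52%, near the 9.75% of all genes), with a median of -0.044. PPAN, a ribosome assembly factor, rose by 0.64 ± 0.10, and POLR1C, a subunit of RNA polymerases I and III, by 0.26 ± 0.09, a call lost without recovery replicate 2, 3 or 4 or heat shock replicate 1 or 2. POLR1B, a subunit of RNA polymerase I, fell by 0.50 ± 0.12, as did the nucleolar genes NOP14, NOP16 and LYAR, by 0.41 ± 0.10, 0.35 ± 0.10 and 0.31 ± 0.07. Of 16 metallothionein and NRF2 target genes 4 rose (25%, beside 11.8% of all genes) and 1 fell (6.25%, beside 9.75%). SLC30A1, a zinc exporter, rebounded by 1.03 ± 0.10 (limma, adjusted p = 6.55e-08), and HMOX1, haem oxygenase, fell by 0.57 ± 0.10. The other risers were SLC7A11, the cystine transporter, by 0.57 ± 0.14, GCLM, of glutathione synthesis, by 0.34 ± 0.11, and TXNRD1, thioredoxin reductase, by 0.31 ± 0.09, and without heat shock replicate 2 SLC30A1 alone rose. Of 30 proteasome and ubiquitin genes 0 fell and 1 rose (3.33%, below the 11.8% of all genes), PSMD12, by 0.39 ± 0.11, a call lost without heat shock replicate 2 or 4. Of 12 interferon response genes 2 rose (16.7%, beside 11.8% of all genes), TRIM21 and IFIT1, and 3 fell (25%, beside 9.75%), IFI35, IRF1 and ISG20, with IFI35 at -0.66 ± 0.14, and 0 rose without heat shock replicate 2. With median scaling these 4 lists had 2 rises and 1 fall in all. Within replicates 1 and 2 the ribosome list had 1 rise and 2 falls, the NRF2 list 2 rises, and the proteasome and interferon lists 0 rises.

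Reference genes and cell markers were set beside these results. None of 9 tested reference genes passed, with ACTB at 0.02 ± 0.10 and GAPDH at -0.03 ± 0.09. Of 11 listed HEK293 markers 9 were tested, 1 rose (VIM, an intermediate filament gene, by 0.36 ± 0.09) and 1 fell (NEFL, a neurofilament gene, by 0.46 ± 0.15), both lost with median scaling, and that of NEFL without any array but recovery replicate 4. Their summed level on the linear scale was 9226 to 10326 on recovering arrays, against 8503 to 9355 on heat-shocked ones, and PAX2 and SOX11 were not tested because they stayed below the detection filter. Of 15 keratinocyte and cervical carcinoma markers 4 were tested, with sums of 895 to 1143 against 914 to 1133, and EPCAM, an epithelial adhesion gene, rose by 0.62 ± 0.10, a call lost with median scaling. Of 15 fibroblast and blood markers 3 were tested, with sums of 177 to 204 against 185 to 221. CD14, a monocyte receptor, fell by 0.90 ± 0.18 and LUM, a matrix proteoglycan, rose by 0.42 ± 0.14, a call lost without recovery replicate 1 or 2 or heat shock replicate 2 or 4. The keratins KRT5 and KRT14 and the leukocyte marker PTPRC were among the untested genes. The part of other cells in the results was not tested.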

How the data were processed

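Total RNA of HEK293T cells was amplified and labelled with biotin from 300 ng, per the labels' protocols, and hybridised to Illumina bead arrays. The deposited scanner table holds a linear intensity for 48803 probes on each of 22 arrays, together with detection p-values, per the file headers, with no background subtracted or normalisation seen in the values. No source used here names the software behind them. The authors' normalised table was not used, because the labels of its late replicates do not match the scanner columns. Samples were grouped by the labels.

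The function neqc of limma 3.58.1 in R 4.3.3 corrected the background from the detection p-values, added an offset of 16, quantile-normalised and took log2. Probes with a detection p under 0.01 on at least 3 arrays were kept (15324, of which 13097 had 1 gene symbol), and the brightest probe stood for each of 10147 genes. Of all probes, 28098 had 1 symbol in the platform annotation, 13 several and 20692 none, and 28059 symbols were brought up to date through gene numbers. For 2423 genes several probes were tested, and in 1649 of them all had the same sign in the recovery comparison.

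All 22 arrays were fitted with a mean for each of 6 groups (lmFit and eBayes), with Benjamini-Hochberg adjustment and a threshold of 0.05. The procedure was tested on simulated data. A fold is given as "at least" where a gene was not detected on any array of the dimmer group, set against the lowest detected signal on those arrays, or against the gene's own signal where that is higher.

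Genes were named by a rule: the 12 largest falls and rises whose groups do not overlap, 4 per pattern, 4 per list, the given markers and a few fixed genes. That gave 89 genes, and others were added after their values were seen, where a list's count was small or to illustrate it. These are FOS, MYC, PPP1R15A, IER5, ZFAND2A, HSPA8, HSPB8, HSPD1, HSPH1, DNAJA1, HSP90AA1, PRICKLE1, WDR33, CEBPG, ATF4, ASNS, PSAT1, HYOU1, PDIA4, DNAJB9, SQLE, RBM39, TRA2A, SRSF2, SRSF5, SRSF6, PNISR, RN7SK, SNHG4, SNORA25, SNORD48, SNORD14C, GTSE1, DLGAP5, POLR1C, LYAR, TXNRD1, ISG20, CHORDC1, HSPE1, GGPS1, FGFBP1 and ACTA2. The comparisons and gene lists were chosen with earlier results of these data known. Lists are described by counts and medians, with no set test.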

Additional observations from a re-analysis of the deposited data

Results flagged for a closer look

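Among 144 genes examined on the 4 recovering arrays, 4 had 1 array far from the others. How many would be flagged by chance was not tested. SNORD13 was at 4.98 on recovery replicate 3, against 6.40 to 6.42 on the others. RFC4, a clamp loader subunit of DNA replication, was at 10.61 on recovery replicate 4, against 10.74 to 10.76. ACTB was at 14.02 on recovery replicate 3, against 13.71 to 13.76, and HSPA1B at 12.55 on recovery replicate 4, against 12.76 to 12.79.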

How the results depend on the processing

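The 9 lead values were recomputed under 9 other settings and without each array in turn, while the fit of only the 7 arrays gave just the counts higher (973) and lower (782); the settings that leave out arrays of other groups were chosen after seeing the data. No lead value reversed, and of the 144 genes 70 kept their side of the threshold in every setting. Median scaling gave 253 genes higher, 161 lower, 84 decayed, 44 rebounded, 2 kept rising and 0 kept falling. Within replicates 1 and 2 the counts were 612, 510, 193, 140, 4 and 0, and within replicates 3 and 4, where 1 heat-shocked array is assumed to vary like the other groups, 183, 159, 47, 9, 1 and 0. The mean of probes left 0 kept falling and turned ATF4 to 0.24.

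After the group means were taken away, same-numbered recovering and heat-shocked arrays correlated at 0.26, 0.04 and 0.18 for replicates 1, 2 and 4. Arrays of different numbers were not compared, so these values cannot tell whether the numbers pair the samples. With the replicate block 1308 genes were higher and 1131 lower, 2 kept falling and 1 differed between the arms, as did 1 without background correction.

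Genes higher or lower after heat shock in the scrambled arm were called afresh in each setting, so their medians cover different sets of genes. The median of the higher genes was -0.99 with median scaling, -0.25 without background correction, -0.35 with no filter, -0.31 with either block, -0.54 within replicates 1 and 2, -0.61 within replicates 3 and 4 and -0.32 with the mean of probes. That of the lower genes was 0.65, 0.26, 0.36, 0.32 with the replicate block and 0.34 with the replicate sets as a block, 0.50, 0.61 and 0.33 in the same order.

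Without 1 array the counts were 834 to 1275 higher, 704 to 1086 lower, 216 to 307 decayed, 164 to 285 rebounded, 4 to 7 kept rising, 0 to 2 kept falling and 0 to 2 between arms. The medians were -0.39 to -0.32 and 0.33 to 0.41. Without background correction the change of 30 of the 144 genes was smaller by over 1.5 times, and 2 calls were lost. The 3 heat-shocked arrays and the background of dim probes limit what could be called.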

Other observations

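Probes of the same gene had recovery changes of opposite sign, passing or not, for 9 of the 44 genes examined that had several tested probes. These were ACTB, ASNS, ATF4, H2AC18, HSP90AA1, MCM7, RFC3, RSRP1 and WDR33. Only ATF4 and RSRP1 had probes that passed in both directions, at an adjusted p over probes under 0.05. ATF4, the transcription factor of the integrated stress response, had a dim probe that was not detected on any heat-shocked array. It was at least 2.07-fold higher in recovering than in heat-shocked cells (limma, adjusted p over probes 1.93e-05), and at least 1.76-fold lower in heat-shocked than in untreated cells (limma, adjusted p over probes 6.04e-04). The brightest ATF4 probe stood at -0.28 ± 0.09 in recovery and the third at -0.45 ± 0.12. The dimmer RSRP1 probe was at 0.52 ± 0.14 after heat shock. Probe sequences were not used here, so the regions these probes read were not compared.

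Numbered ZNF genes, which code for zinc finger repressors, were looked at after the values were seen. Of 293 tested, 43 rose (14.7%, beside 11.8% of all genes) and 44 fell (15%, beside 9.75%) in recovery, with a median of -0.019. Among the 293, 32 were decayed genes (beside 2.81% of all genes) and 12 were rebounded genes (beside 2.58%). After heat shock 40 of them were higher (13.7%, beside 4.11% of all genes) and 12 lower (4.1%, beside 3.51%).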
